A study of Mus musculus with 6 samples.

Results

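Retinoic acid genes were compared between cells with high and low Nkx2-1, and 5 of the 9 genes examined were lower where Nkx2-1 was high. The 9 genes encode proteins that take up retinol (Stra6), carry retinoic acid (Crabp1 and Crabp2), reduce retinal back to retinol (Dhrs3), oxidise retinal to retinoic acid (Aldh1a2 and Aldh1a3), break retinoic acid down (Cyp26a1 and Cyp26b1) or act as its receptor (Rarb). They were chosen by name, with earlier results of these data known. Each is the array row that GEO's platform annotation assigns to that symbol alone. All 9 were found, each on 1 row, among 19938 genes tested. The Nkx2-1 high group held 3 samples of GFP-positive cells and the Nkx2-1 low group 3 samples of GFP-negative cells. Both came from mouse embryonic stem cells of the W4/129S6 background that carry a GFP reporter knocked into Nkx2-1, a lung, thyroid and forebrain transcription factor gene, so cells of both groups carried the knock-in. The cells were sorted on GFP at day 14 of differentiation, and no other gate is given in the labels. Each sample is therefore a mixture of whatever cells were GFP-positive or GFP-negative on that day.

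Retinoic acid is made inside cells from vitamin A (retinol) by oxidation to retinal and then to the acid, and it switches genes on through nuclear receptors that sit on DNA as RAR and RXR pairs. Its level is held in place by feedback, because Dhrs3 and Cyp26a1 are among the genes it induces. Retinoic acid also induces the receptor gene Rarb. In the embryo retinoic acid from mesoderm helps to pattern the foregut and to induce the lung bud, and it also acts on hindbrain, neural crest and facial mesenchyme.

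Nkx2-1 itself, on which the cells were sorted, had log2 expression of 7.62, 7.77 and 7.77 in the Nkx2-1 high samples, against 5.42, 5.23 and 5.34 in the Nkx2-1 low samples. Values throughout are log2 expression, a gene that rose is one higher in Nkx2-1 high at a limma adjusted p under 0.05 over all 19938 genes, a gene that fell is one lower at the same threshold, and ± after a difference is its standard error. By this rule 617 genes fell, which is 3.09% of those tested, and 579 rose, which is 2.90%. A background level of 4.27 was taken from olfactory and vomeronasal receptor rows, and all 9 genes lay above it in both groups. Among markers of the labelled cell types, the thyroid factor genes Hhex (difference 0.98 ± 0.15) and Pax8 (0.60 ± 0.10) rose, while Tg, Tshr, Sftpc, Scgb1a1, Scgb3a2 and the endoderm gene Sox17 stayed under the background level in both groups. Of 8 definitive endoderm markers 6 were above background in both groups, among them Foxa2, Gata4 and Gata6, as were the lung genes Sftpa1 and Sftpb and the thyroid genes Slc5a5 and Foxe1. Of 8 epithelial markers Epcam fell (-0.81 ± 0.11), and the other 7 did not pass. Of these, Krt18 (0.35), Krt8 (0.16) and Krt19 (0.12) were higher in Nkx2-1 high. Cldn6 (-0.40), Cdh1 (-0.36), Cldn7 (-0.29) and Esrp1 (-0.16) were lower, the last 2 of them under background.

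Of the 9 retinoic acid genes 5 fell and 0 rose, beside the 3.09% of all genes that fell and the 2.90% that rose. Because the genes were chosen with earlier results of these data known, no comparison of the 9 with all genes tests the group. Without adjustment for multiple testing, 7 of the 9 were lower at a limma p under 0.05 and 0 were higher. The share of all genes at this unadjusted level was not counted, here or for the lists below. The median difference of the 9 was -0.56, against -0.01 over all genes. In the same 5 genes every Nkx2-1 high sample lay below every Nkx2-1 low sample, as it did for 13.5% of all genes. With 3 samples against 3, each of the 5 had p = 0.1 by exact permutation (two-sided), the smallest that this design allows. The samples are bulk RNA, in which fewer cells of a type and less RNA per cell cannot be told apart.

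**Figure D1:**
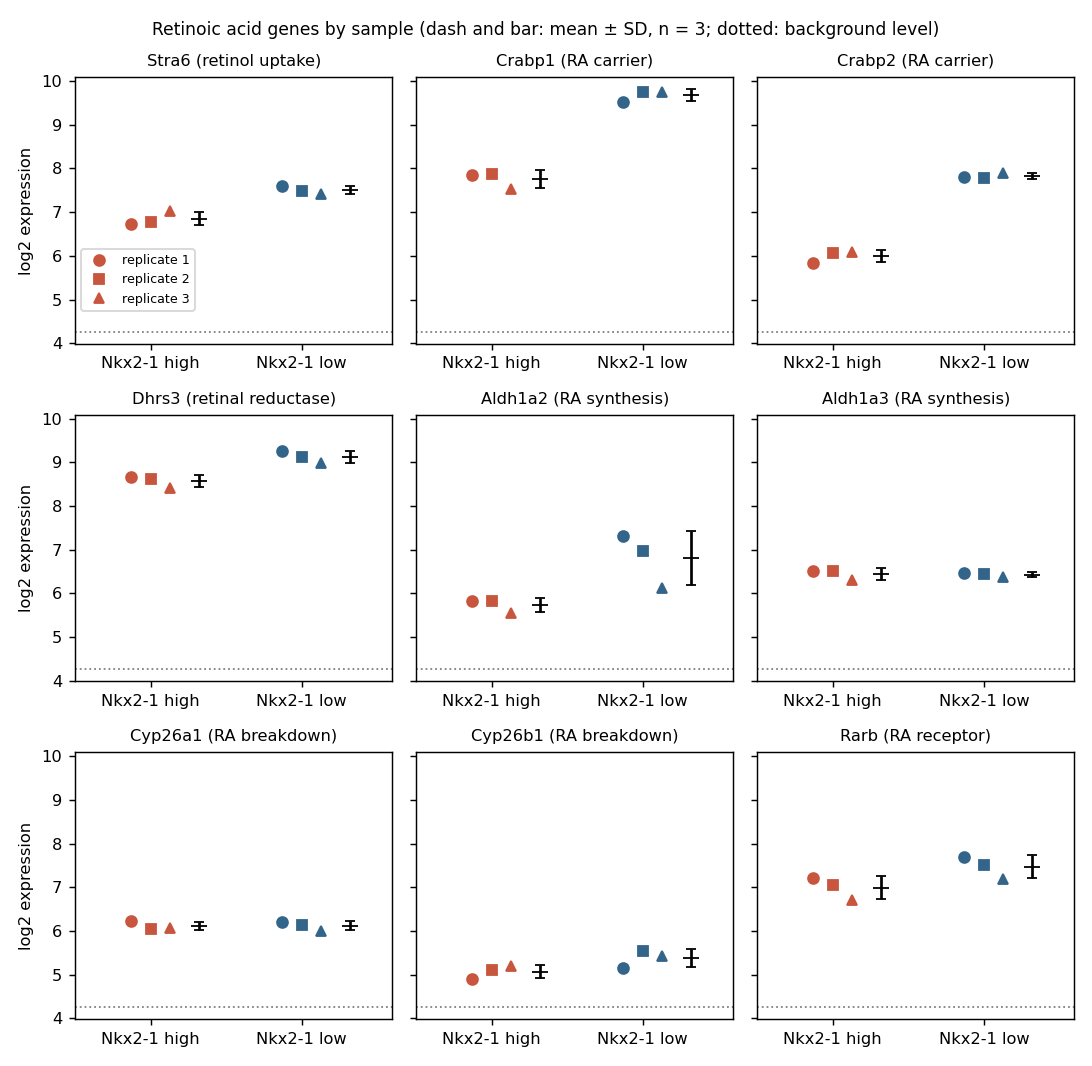
Log2 expression (y axis) of the 9 genes in the 3 Nkx2-1 high samples (red) and the 3 Nkx2-1 low samples (blue), with the mean and SD beside them and the background level of 4.27 as a dotted line. The groups are far apart for Crabp1 and Crabp2, closer for Stra6, Dhrs3 and Aldh1a2, and overlap for the other 4 genes.

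Stra6 is the membrane receptor that takes up retinol from its plasma carrier. Its log2 expression was 6.74, 6.79 and 7.03 in the Nkx2-1 high samples, against 7.61, 7.49 and 7.42 in the Nkx2-1 low samples. The groups did not overlap, and a gap of 0.39 separated the highest Nkx2-1 high sample from the lowest Nkx2-1 low sample. Stra6 fell by 0.66 on the log2 scale (difference -0.66 ± 0.10, 1.58-fold lower, limma adjusted p = 0.00409).

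The carriers of retinoic acid in the cytoplasm showed the largest falls of the 9 genes. Crabp1 binds retinoic acid and is a marker of migrating neural crest and of some neurons. Its log2 expression was 7.86, 7.88 and 7.52 in the Nkx2-1 high samples, against 9.51, 9.76 and 9.75 in the Nkx2-1 low samples. All Nkx2-1 high samples were low and the gap to the Nkx2-1 low samples was 1.63. The difference was -1.92 ± 0.12 (3.79-fold lower, limma adjusted p = 2.85e-05), and Crabp1 ranked 11 in size of fall among the 617 genes that fell. Even so, its level in Nkx2-1 high stayed well above background.

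Crabp2 delivers retinoic acid to its nuclear receptors. Its log2 expression was 5.84, 6.06 and 6.08 in the Nkx2-1 high samples, against 7.80, 7.79 and 7.90 in the Nkx2-1 low samples. The samples of each group lay close together, with SDs of 0.14 in Nkx2-1 high and 0.06 in Nkx2-1 low, and the gap between the groups was 1.71. The difference was -1.84 ± 0.09 (3.57-fold lower, limma adjusted p = 1.20e-05), rank 13 among the genes that fell.

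An unequal fall of Crabp1 and Crabp2 was not detected. The log2 value of Crabp1 minus that of Crabp2 ran from 1.44 to 2.02 in Nkx2-1 high samples and from 1.71 to 1.97 in Nkx2-1 low samples. The group means of this quantity differed by -0.08 (exact two-sided permutation p = 0.8, and p = 0.8 adjusted over 3 such pairs of related genes). These values show only whether a pair changed unequally, since levels of different probes cannot be compared.

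Dhrs3 reduces retinal to retinol and so withdraws it from retinoic acid synthesis. Its log2 expression was 8.66, 8.62 and 8.41 in the Nkx2-1 high samples, against 9.25, 9.12 and 8.99 in the Nkx2-1 low samples. The groups were separate by 0.33, and in both groups the sample numbered 3 was the lowest. Dhrs3 was 1.47-fold lower (difference -0.56 ± 0.10, limma adjusted p = 0.00993).

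Of the enzymes that make retinoic acid, Aldh1a2 fell and Aldh1a3 did not pass the test. Aldh1a2, the main retinoic acid synthase of embryonic mesoderm, stood at 5.82, 5.82 and 5.56 in the Nkx2-1 high samples, against 7.32, 6.96 and 6.12 in the Nkx2-1 low samples. The groups did not overlap, but the Nkx2-1 low samples were spread (SD 0.62, against 0.15 in Nkx2-1 high), and replicate 3 of that group lay only 0.29 above the highest Nkx2-1 high sample. Aldh1a2 was 2.09-fold lower in Nkx2-1 high (difference -1.07 ± 0.25, limma adjusted p = 0.0346). Leaving out Nkx2-1 low replicate 3 gave a difference of -1.41 and a limma adjusted p of 0.000495, while leaving out any other single sample gave an adjusted p of 0.0861 to 0.121 and ended the call.

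Aldh1a3, the retinoic acid synthase of eye, nose and other surface structures, had nearly equal means. It stood at 6.52, 6.52 and 6.30 in the Nkx2-1 high samples, against 6.47, 6.45 and 6.37 in the Nkx2-1 low samples. The ranges overlapped, and the difference of 0.02 ± 0.09 had a 95% interval from -0.18 to 0.22 (limma adjusted p = 0.938). The log2 value of Aldh1a2 minus that of Aldh1a3 ran from -0.74 to -0.70 in Nkx2-1 high samples and from -0.25 to 0.85 in Nkx2-1 low samples, without overlap. The group means of this quantity differed by -1.08, and the exact two-sided permutation p of 0.1, the smallest possible, became 0.3 over the 3 pairs.

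Cyp26a1 and Cyp26b1, cytochrome P450 enzymes that clear retinoic acid, did not pass the test. Cyp26a1, which is strongly induced by retinoic acid, stood at 6.22, 6.04 and 6.08 in the Nkx2-1 high samples, against 6.21, 6.15 and 6.004 in the Nkx2-1 low samples. Its difference was -0.01 ± 0.09 with a 95% interval from -0.21 to 0.19 (limma adjusted p = 0.978), so a change the size of that of Stra6 or Dhrs3 lay outside the interval. Cyp26b1, the enzyme that clears retinoic acid in limb, hindbrain and gonad, stood at 4.90, 5.10 and 5.21 in the Nkx2-1 high samples, against 5.15, 5.55 and 5.43 in the Nkx2-1 low samples. The groups overlapped by the lowest Nkx2-1 low sample, and the difference was -0.31 ± 0.12 (95% interval -0.57 to -0.04, limma adjusted p = 0.195). The log2 value of Cyp26a1 minus that of Cyp26b1 differed by 0.30 between the group means (exact two-sided permutation p = 0.3, and 0.45 over the 3 pairs).

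Rarb encodes retinoic acid receptor beta, itself a standard target of retinoic acid. Its log2 expression was 7.21, 7.06 and 6.71 in the Nkx2-1 high samples, against 7.70, 7.51 and 7.18 in the Nkx2-1 low samples. The highest Nkx2-1 high sample lay just above the lowest Nkx2-1 low sample, and the sample numbered 3 was the lowest of each group. The difference of -0.47 ± 0.15 did not pass (95% interval -0.82 to -0.12, limma adjusted p = 0.122, unadjusted p = 0.0129).

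Promoter sequences are shown for the genes whose windows hold the classical retinoic acid response element, and for Crabp1, the largest fall, which does not. RefSeq windows of GRCm38.p6, from 250 bases before to 50 bases after an annotated start, were found for 7 of the 9 genes (12 windows). None was found for Crabp2 or Aldh1a3, so the promoters of these genes were not searched. Receptor half-sites were searched on both strands in the forms AGGTCA, which is the consensus, and AGTTCA, as well as GGGTCA and also GGTTCA. Pairs of them in the same direction with 5 bases between them are called DR5. Capitals mark the DR5. In Rarb it lies on the gene's own strand, 53 to 37 bases before the start, and in Cyp26a1 on the opposite strand, 32 to 16 bases before the start. The Rarb window is chr14:16575427-16575726 (minus strand), the Cyp26a1 window chr19:37697558-37697857 (plus strand) and the Crabp1 window chr9:54764498-54764797 (plus strand).
Rarb: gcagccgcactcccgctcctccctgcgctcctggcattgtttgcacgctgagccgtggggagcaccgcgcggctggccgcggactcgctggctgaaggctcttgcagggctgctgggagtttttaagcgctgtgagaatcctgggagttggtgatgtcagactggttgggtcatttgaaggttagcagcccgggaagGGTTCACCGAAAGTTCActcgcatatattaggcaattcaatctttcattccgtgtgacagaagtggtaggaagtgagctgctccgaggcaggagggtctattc
Cyp26a1: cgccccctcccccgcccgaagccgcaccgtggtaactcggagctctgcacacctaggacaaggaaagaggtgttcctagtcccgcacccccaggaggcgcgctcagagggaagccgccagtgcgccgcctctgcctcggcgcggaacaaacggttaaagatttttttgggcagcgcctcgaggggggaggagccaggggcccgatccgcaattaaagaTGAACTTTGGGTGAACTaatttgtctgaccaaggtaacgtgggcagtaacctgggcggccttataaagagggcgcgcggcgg
Crabp1: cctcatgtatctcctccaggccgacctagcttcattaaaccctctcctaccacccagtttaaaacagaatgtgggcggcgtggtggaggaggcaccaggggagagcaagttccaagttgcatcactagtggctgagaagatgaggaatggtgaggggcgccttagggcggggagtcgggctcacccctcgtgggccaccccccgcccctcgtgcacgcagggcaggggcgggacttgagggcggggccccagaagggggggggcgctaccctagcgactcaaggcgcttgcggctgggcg

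The Rarb element reads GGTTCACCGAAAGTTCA and that of Cyp26a1, read on the opposite strand, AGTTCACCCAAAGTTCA. The second half-site, AGTTCA, is the same in both. A DR5 of this kind was present in 32 of 32851 promoter windows (0.0974%), those of 31 genes. It was in no window of Stra6, Crabp1, Dhrs3, Aldh1a2 or Cyp26b1, which says only that these letters are not in these windows. A half-site was present in 43.7% of all windows and in 3 of the 12 windows of these genes, 1 each of Rarb, Cyp26a1 and Stra6. Pairs spaced by 1 or 2 bases, at 0.222% and 0.268% of all windows, were found in none of the 12. Of the 31 genes with a DR5 window 11 were measured, and of these 0 fell and 1 rose, beside 3.09% and 2.90% of all genes. The one that rose was the prokineticin receptor gene Prokr2 (difference 1.70 ± 0.19, limma adjusted p = 0.000868), named after its value was seen. Rarb and Cyp26a1 were both without a call, as given above.

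**Figure D2:**
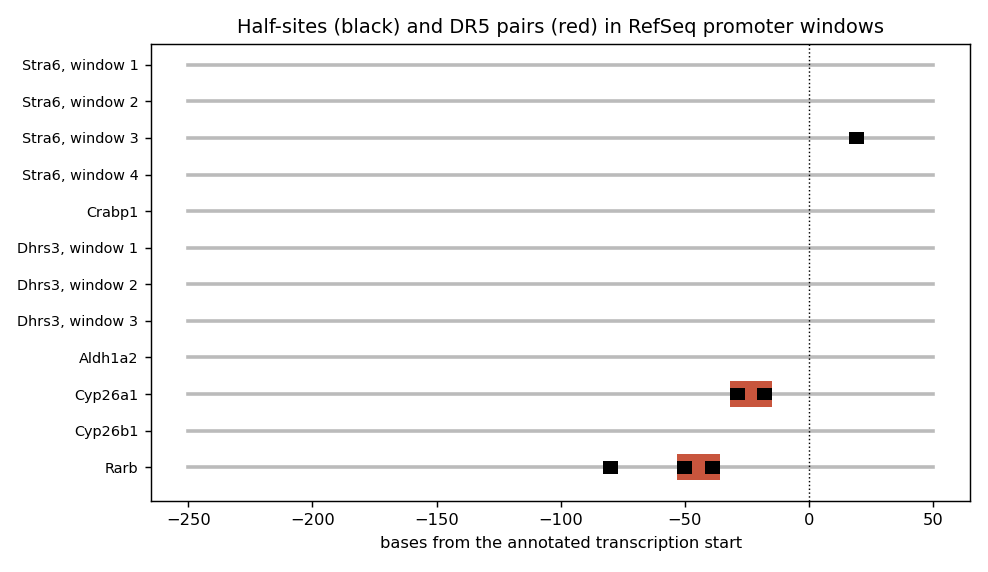
Positions of half-sites (black) and DR5 pairs (red) along the 12 RefSeq promoter windows of 7 genes, as bases from the annotated transcription start (x axis), with several windows for genes with several starts. Of these 7 genes only Rarb and Cyp26a1 hold a DR5, between 53 and 16 bases before the start.

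Among the other genes of the pathway, calls were made in both directions. Of 82 listed genes 76 were measured, 45 of them with 1 or both group means above background. Of the 76, 4 fell and 3 rose, beside 3.09% and 2.90% of all genes. Their median difference was -0.02, against -0.56 for the 9 genes and -0.01 for all genes. Their summed signals overlapped between the groups, with ranges of 5793 to 6288 in Nkx2-1 high and 6053 to 6207 in Nkx2-1 low on the linear scale. Bright genes weigh most in such a sum. The 9 receptor coregulator genes alone gave 2128 to 2326 in Nkx2-1 high and 2249 to 2330 in Nkx2-1 low.

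In the lists of retinol carriers, retinyl ester enzymes and dehydrogenases, which leave out Stra6 and Dhrs3, no gene passed. Of 8 genes of retinol carriers and uptake limma called 0 in either direction, and unadjusted p under 0.05 was reached by 2 that were higher and 1 that were lower. The plasma carrier genes Rbp4 and Ttr were not above background, and Lrp2, an endocytic receptor that takes up the plasma carrier complex, had the largest difference of those above background (0.56, 95% interval 0.08 to 1.03, limma adjusted p = 0.185). Of 5 genes of retinyl ester and carotenoid enzymes limma called 0 in either direction, and unadjusted p under 0.05 was reached by 1 that were higher and 0 that were lower. Lrat, which esterifies retinol for storage, was not above background, and Dgat1 differed by -0.09. Of 21 retinol and retinal dehydrogenase genes limma called 0 in either direction, and unadjusted p under 0.05 was reached by 1 that were higher and 1 that were lower. Of the dehydrogenase genes above background Dhrs7 had the largest difference (0.24, limma adjusted p = 0.153). Rdh10, the main retinol dehydrogenase of the embryo, averaged 8.56 in Nkx2-1 high and 8.54 in Nkx2-1 low (95% interval of the difference -0.24 to 0.29, limma adjusted p = 0.935).

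Among the other oxidases and hydroxylases, 2 of 6 fell and 1 rose. Aldh1a7 stood at 3.96, 3.89 and 3.16 in the Nkx2-1 high samples, against 5.64, 5.50 and 4.90 in the Nkx2-1 low samples. It was above background only in Nkx2-1 low and at least 2.11-fold lower in Nkx2-1 high, measured against the background level (limma adjusted p = 0.00290). Aldh1a7 is a close rodent copy of Aldh1a1 that is reported not to act on retinal, and array probes may not fully separate both copies. Aldh1a1 itself was not above background. Cyp2s1, a P450 reported to metabolise retinoic acid, stood at 5.75, 5.41 and 5.04 in the Nkx2-1 high samples, against 6.57, 6.24 and 6.50 in the Nkx2-1 low samples, without overlap (difference -1.04 ± 0.16, limma adjusted p = 0.00552). Cyp26c1, the third member of the Cyp26 family, moved the other way, at 5.51, 5.58 and 5.66 in the Nkx2-1 high samples, against 5.26, 5.07 and 5.23 in the Nkx2-1 low samples. Its rise was small (difference 0.39 ± 0.08, limma adjusted p = 0.0248) and was lost in 4 of the 6 fits that left out 1 sample (adjusted p up to 0.0986).

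Among the other receptors and carriers, 1 of 7 fell and 1 rose. Rarg, the receptor gene of mesenchyme and skin, stood at 6.42, 6.19 and 6.19 in the Nkx2-1 high samples, against 6.80, 6.91 and 6.74 in the Nkx2-1 low samples (difference -0.55 ± 0.09, limma adjusted p = 0.00728). Rxrg, a partner receptor gene, was above background only in Nkx2-1 high, at 4.59, 4.49 and 4.47, against 3.83, 4.13 and 3.99 in Nkx2-1 low, and was at least 1.19-fold higher (limma adjusted p = 0.00948). Both sets of samples were separate. Rara, the most widely expressed receptor gene, averaged 6.68 in Nkx2-1 high and 6.50 in Nkx2-1 low, and did not pass (limma adjusted p = 0.261). Of 9 coregulator genes limma called 0 in either direction, and unadjusted p under 0.05 was reached by 1 that were higher and 0 that were lower, and the coactivator gene Ncoa3 differed most (0.23, limma adjusted p = 0.151).

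Of 20 measured genes that retinoic acid induces in other settings 1 rose and 1 fell, and the median difference was 0.03. This list leaves out the genes described above, Dhrs3, Cyp26a1 and Rarb among them. Of the 20, 12 had 1 or both group means above background. Bhlhe40, a transcriptional repressor gene, rose, with 7.09, 7.001 and 7.16 in the Nkx2-1 high samples, against 6.57, 6.63 and 6.67 in the Nkx2-1 low samples (difference 0.46 ± 0.08, limma adjusted p = 0.00812). Hoxa5 fell at levels under background in both groups (limma adjusted p = 0.0365), and the call was lost in 5 of the 6 fits that left out 1 sample (adjusted p up to 0.108).

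**Figure D3:**
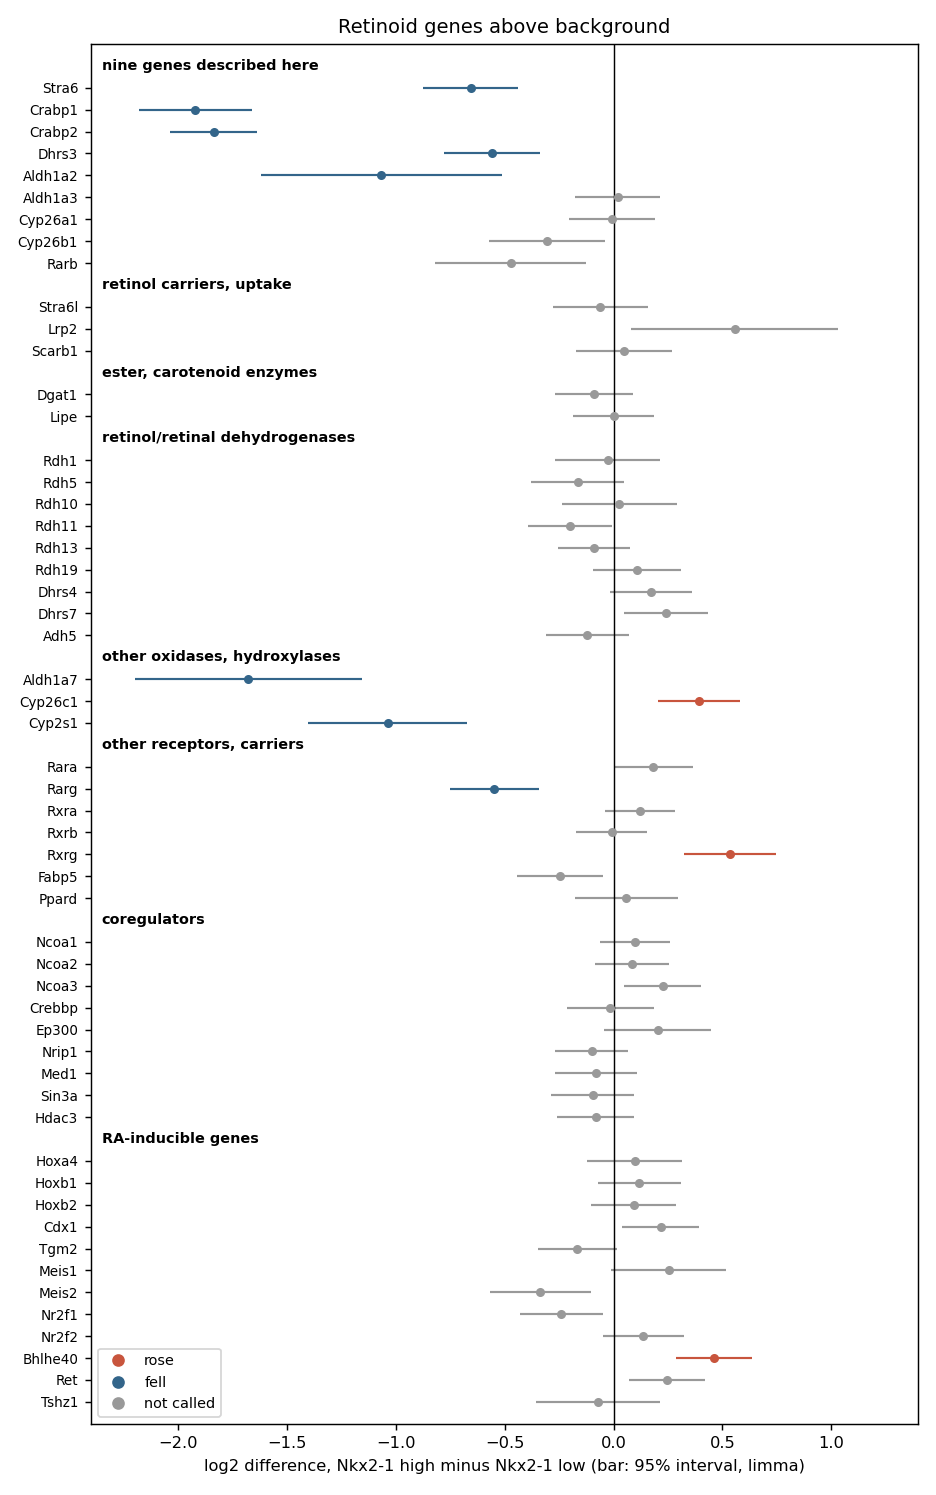
Log2 difference between the groups, Nkx2-1 high minus Nkx2-1 low (x axis), with its 95% interval, for the 9 genes and for 45 other retinoid genes above background, grouped by role. Crabp1, Crabp2 and Aldh1a7 lie farthest left, and most other genes lie near 0.

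The profiles most like those of the 5 fallen genes were found among 12772 named genes above background, as the smallest root-mean-square distance between 6 log2 values centred on their mean. For Crabp1 they were Apod (0.133), Prrx1 (0.156) and Gria1 (0.161), with differences of -1.69, -1.90 and -1.75. For Crabp2 they were Slitrk6 (0.157), Sfrp2 (0.191) and Crabp1 (0.191). For Stra6 they were AW551984 (0.0608), Hsd17b12 (0.0702) and Cep78 (0.0745), and for Dhrs3 they were Cdyl (0.0291), Plpp3 (0.0329) and Epha4 (0.0355). For Aldh1a2, whose Nkx2-1 low samples were spread, they were Gata2 (0.140), Tiam2 (0.171) and Hpgd (0.203). All of these genes fell as well, which the measure all but requires.

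Some markers of mesenchyme, neural crest and neurons were lower in the same samples, and others did not pass. Of 11 mesenchyme markers 6 fell and 0 rose, with Postn (difference -2.34 ± 0.16), Prrx1 (-1.90 ± 0.14) and Pdgfra (mean 6.53 in Nkx2-1 high and 8.53 in Nkx2-1 low) lowest. The summed linear signal of the list ran from 2544 to 3363 in Nkx2-1 high and from 5410 to 6642 in Nkx2-1 low, and 0 of the 11 markers were at or under background. The 5 mesenchyme markers that did not pass were Lum (-0.74), Thy1 (-0.04), Pdgfrb (0.04), Twist2 (0.10) and Dcn (0.16). Of 11 neural crest markers 4 fell and 0 rose, led by Msx1 (-1.59 ± 0.11), Tfap2b, at least 1.38-fold lower, and Twist1 (-0.95 ± 0.12). Their summed signal ran from 789 to 956 in Nkx2-1 high and from 1338 to 1490.2 in Nkx2-1 low. The 7 crest markers that did not pass went both ways. Ets1 (0.17), Sox10 (0.16) and Foxd3 (0.03) were above background and higher in Nkx2-1 high. Tfap2a (-0.24), Ngfr (-0.26), Ednrb (-0.38) and Pax3 (at least 1.37-fold) were lower. Of 12 neuronal markers 7 fell and 0 rose, with summed signals of 374 to 484 in Nkx2-1 high and 676 to 698 in Nkx2-1 low. Ina (-1.58 ± 0.14) had the largest fall among them, and Dcx was at least 2.30-fold and Stmn2 at least 1.79-fold lower. The 5 neuronal markers that did not pass were Map2 (-0.55), Elavl3 (-0.31), Nefm (-0.07), Syt1 (0.03) and Rbfox3 (0.06). Of these, Nefm was not above background. The part of these cell types in the falls of Crabp1, Crabp2, Stra6, Dhrs3 and Aldh1a2 was not tested.

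The remaining marker lists held fewer calls or calls in the other direction. Of 8 endothelial markers 3 rose and 0 fell, with Flt4 (1.10 ± 0.08), Tek, at least 1.77-fold higher, and Eng (0.88 ± 0.21), while Cdh5 was not above background. The other 5 did not pass. Emcn (0.59) and Pecam1 (at least 1.12-fold) were higher, and Kdr (-0.08), Cdh5 (-0.17) and Tie1 (at least 1.08-fold) were lower. The Eng call was lost in 4 of the 6 fits that left out 1 sample (adjusted p up to 0.122). Of 8 definitive endoderm markers limma called 0 in either direction, and unadjusted p under 0.05 was reached by 1 that were higher and 0 that were lower. Of 11 lung markers Sftpa1 rose (0.49 ± 0.09) and Id2 fell (-0.46 ± 0.10, a call lost in 4 of the 6 fits without 1 sample), and of 6 thyroid markers Pax8 and Hhex rose.

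**Figure D4:**
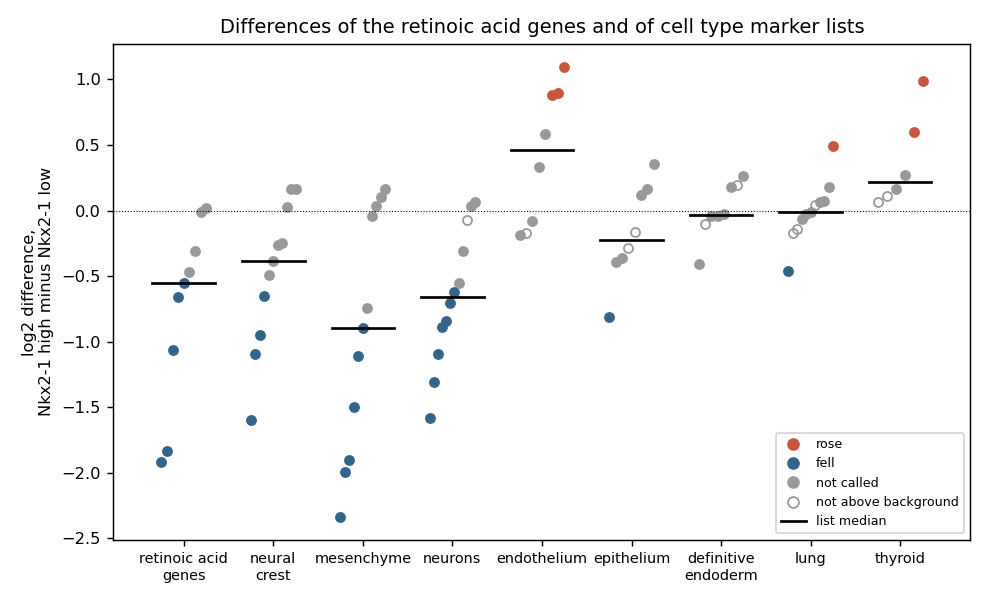
Log2 difference, Nkx2-1 high minus Nkx2-1 low (y axis), of each measured gene of the retinoic acid group and of 8 cell type marker lists, with the list median as a bar and open circles for genes not above background. The medians are -0.56 for the retinoic acid genes, -0.38 for neural crest, -0.90 for mesenchyme, -0.66 for neurons, 0.46 for endothelium, -0.22 for epithelium, -0.03 for definitive endoderm, -0.01 for lung and 0.22 for thyroid.

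The calls of Crabp1 and Crabp2 held under all 19 alternatives tried. Stra6 and Dhrs3 held in each of the 6 fits without 1 sample, with adjusted p up to 0.0259 for Stra6 and up to 0.0416 for Dhrs3. Both lost the call with limma treat against a fold of 1.2 (adjusted p = 0.0774 for Stra6 and 0.290 for Dhrs3) and with a test per gene without eBayes (0.0995 for Stra6 and 0.128 for Dhrs3). Without both samples numbered 3, an alternative chosen after the data were seen, 5 of the 9 genes were again called, the same 5.

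**Figure D5:**
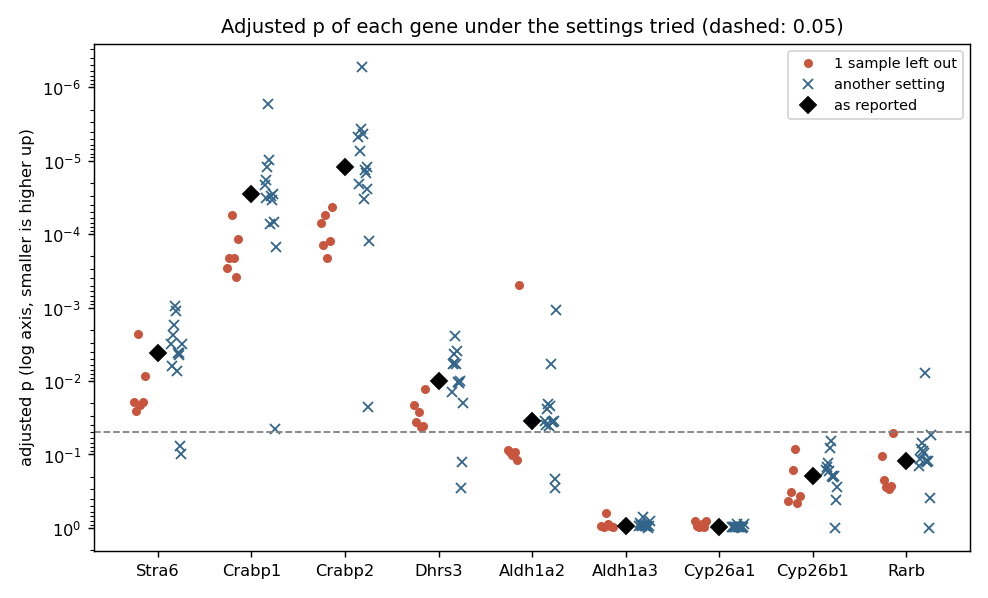
Adjusted p (log y axis, smaller values higher) of each of the 9 genes as reported (black), with 1 sample left out (red) and under the other settings (blue crosses), with 0.05 dashed. Crabp1 and Crabp2 stay above the line throughout, Aldh1a2 falls below it in 5 of the 6 fits without 1 sample, and Rarb crosses it once.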

How the data were processed

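Total RNA of 3 Nkx2-1 high and 3 Nkx2-1 low samples, which the labels' protocols call biological replicates, was carried through WT-Ovation Pico amplification and biotin labelling, per the labels' protocols. Amplification can change relative signals, and no step here removes that. The authors deposited 1 table of values, taken here as log2 expression because the submitters' processing notes name RMA and array medians ran from 4.98 to 5.06. No source states the scale. For the RMA version, genome build, scan date and slide, the entry is: not given in the sources used here. Scan and slide batches could not be examined, and precision is limited by having 6 arrays.

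Of 29011 rows, 21789 had 1 symbol, 1621 several and 5601 none in GEO's platform annotation. The highest-mean row was kept for the 999 genes with more than 1 row, which left 19938 genes. Symbols were checked through Entrez ID in RefSeq (91 rows unmatched, 0 symbols updated). Background was the 95th percentile of the means of 1210 chemosensory receptor rows. A gene with only 1 group above it was given a fold against that level, written "at least".

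The comparison used R 4.3.3 and limma 3.58.1 (lmFit, then eBayes) with no term but the group, and p-values were adjusted over all genes by Benjamini-Hochberg. The fit was also run on simulated data, drawn as independent normal noise with the variances that the fit itself estimated. Such data cannot show whether the model suits these arrays. Exact permutation tests used scipy 1.17.1, and figures matplotlib 3.10.9 in Python 3.11.15. The members and lists were chosen with earlier results of these data known. Genes named are the 9 members, every called gene of each retinoid list (or the above-background gene with the largest difference), up to 3 called genes and the dim genes of each marker list, and the 3 nearest profiles of each called member. Others, such as Rdh10, Rara and Prokr2, were named after their values were seen. Some listed genes are not reported here. Alternatives were median-centred arrays, cyclic loess, filters on dim genes, array weights, robust eBayes with a trend, a replicate block, other uses of a gene's rows, a threshold of 0.01, limma treat at a fold of 1.2, a test per gene without eBayes, and leaving out samples.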

Additional observations from a re-analysis of the deposited data

How the results depend on the processing

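The direction of each of the 5 called genes was the same under all 19 alternatives, and arrays centred on the median or normalised by cyclic loess called the same 5. Several of the 19 leave the difference itself unchanged and so could not alter its direction. The number of genes called, 1196, was 507 at a threshold of 0.01, 282 with limma treat, 89 with a test per gene without eBayes, and 624 to 1086 without 1 sample. Leaving out replicate 1 gave 772 (Nkx2-1 high) or 765 (Nkx2-1 low), and leaving out replicate 2 gave 624 (Nkx2-1 high) or 709 (Nkx2-1 low). With treat, and with the test per gene, 2 of the 9 genes were called (Crabp1 and Crabp2). Of the other retinoid genes 2 were called with treat and 0 with the test per gene, which gave 19 without adjustment at p under 0.05, against 21 by limma with eBayes. Stra6 (difference -0.66) lost its call with treat (adjusted p = 0.0774) and with the test per gene (0.0995), as did Dhrs3 (-0.56, adjusted p = 0.290 and 0.128) and Aldh1a2 (-1.07, adjusted p = 0.213 and 0.287), which also missed the 0.01 threshold. Without 1 sample the Aldh1a2 difference ran from -1.41 to -0.81. Treat asks for more than a 1.2-fold change, and the test per gene has fewer degrees of freedom. Aldh1a3 and Cyp26a1, never called, changed sign under 3 and 5 of the alternatives. The replicate numbers were not taken to pair the samples: deviations of same-numbered samples from their group means correlated at 0.181, -0.00405 and 0.277 across genes, and not every sample correlated best with its own number. With the replicate block 1470 genes were called, and Rarb (-0.47) gained a call (adjusted p = 0.00776), so 6 of the 9 were called. The unequal change of the 3 related pairs was rerun only with cyclic loess, the mean over a gene's rows and 1 sample left out. With 1 row per gene, the mean over rows could not change it. Each time it moved by less than the larger group SD of that pair. For Aldh1a2 minus Aldh1a3 that SD was wide, 0.56, and the change ran from -1.39 to -0.85 without 1 sample.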
